A study of Homo sapiens with 12 samples.

Results

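The BCL2 family decides whether a stressed cell opens the outer membrane of its mitochondria, and 10 of its members were followed here by their symbols through the Ensembl gene IDs of the deposited count table. They are 3 survival proteins (BCL2, BCL2L1, MCL1), 5 BH3-only proteins (BCL2L11, BBC3, PMAIP1, BID, BIK) and 2 pore-forming effectors (BAX, BAK1), which makes 10 of the 60669 gene IDs in the table. All 10 were among the 18720 genes with enough counts to be tested. The libraries come from 6 established cell lines, which the paper names as ovarian cancer lines. They form 3 families, each of a drug-sensitive parent and a resistant line derived from it. HeyA8 is paired with the carboplatin-resistant HeyA8_MDR, SKOV3 with the taxol-resistant SKOV3_TR, and OV2008 with the cisplatin-resistant OV2008_C13. Each line was given 8 µM quinacrine (QC), an antimalarial drug, or vehicle for 6 h, and polyadenylated RNA was sequenced, with 1 library for each line and treatment and 12 in all. No line therefore has a replicate of its own, the 3 lines of a group stand as its replicates, and p-values measure the spread between lines.

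In healthy cells the survival proteins hold BAX and BAK1 in check at the mitochondrion. The BH3-only proteins are made or activated when a cell is damaged or starved of signals; they bind the survival proteins, and some of them also switch on BAX and BAK1 directly, after which cytochrome c leaves the mitochondria and caspases are activated. BCL2L1 encodes BCL-XL, BCL2L11 encodes BIM, BBC3 encodes PUMA and PMAIP1 encodes NOXA, whose main partner among the survival proteins is MCL1. Drug-resistant ovarian cancer cells are often described by their supply of BCL-XL and MCL1.

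Total counts on genes lay between 17782556 and 30585059 per library. Deviations from the group means were shared by the 2 libraries of each line (r across genes 0.893 to 0.929). Summed keratin and other epithelial markers stood between 1058 and 8312 CPM (counts scaled to a common library total), leukocyte markers between 0.1816 and 2.363 CPM and fibroblast markers between 1.558 and 42.94 CPM. In HeyA8 and HeyA8_MDR the epithelial sum came from KRT7, KRT8 and KRT18. The other epithelial markers were low there with vehicle: KRT19 had 0.3545 and 0.1039, EPCAM 2.925 and 0.05194, and CDH1 0.2216 and 0 CPM. Endothelial markers reached 177.3 CPM and were highest in HeyA8 and HeyA8_MDR through CDH5 (89.25 and 147.9 CPM with vehicle). The ovarian markers fixed for the check summed to between 48.5 and 514.8 CPM and were lowest in OV2008 and OV2008_C13. There the lineage factor PAX8 had 7.561 and 19.64 CPM with vehicle against 324.6 to 479.6 CPM in the other 4 lines. The ovarian label of OV2008 and OV2008_C13 is that of the paper, and their origin was not tested. The HeyA8 QC library was shifted most, towards HeyA8_MDR, at the genes that differ most between the HeyA8 and HeyA8_MDR vehicle libraries. These genes were chosen on the same vehicle libraries from which the shift was measured. Such a choice can by itself give a shift towards the other line, and its part was not tested. The median shift was 37% of the gap for the 34 genes higher in HeyA8_MDR and 51.3% for the 80 genes lower there. The HeyA8_MDR QC library was shifted towards HeyA8 by 25.0% for those 34 genes and 3.33% for those 80. In the OV2008 QC library the corresponding values towards OV2008_C13 were 0.926% and 31.3%. Calls over all 6 lines are therefore also given without HeyA8.

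BBC3 and PMAIP1 carried the largest QC responses and BAX the most even one, so the 250 bases before the RefSeq transcription start of these 3 genes are shown (GRCh38.p14), 5′ to 3′ on the strand of the gene. Capitals mark the CRE core ACGTCA bound by ATF and CREB factors, the E-box CACGTG and the AP-1 site TGANTCA, each searched on both strands; these motifs do not overlap each other here. PMAIP1 lies at chr18:59899746-59899995 (plus strand), BBC3 at chr19:47232668-47232917 (minus strand) and BAX at chr19:48954625-48954874 (plus strand).
PMAIP1: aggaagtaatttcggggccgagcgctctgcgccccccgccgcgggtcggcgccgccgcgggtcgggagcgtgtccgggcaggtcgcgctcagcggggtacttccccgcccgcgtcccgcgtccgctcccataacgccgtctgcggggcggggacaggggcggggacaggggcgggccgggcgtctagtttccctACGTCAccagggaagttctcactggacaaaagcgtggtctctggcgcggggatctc
BBC3: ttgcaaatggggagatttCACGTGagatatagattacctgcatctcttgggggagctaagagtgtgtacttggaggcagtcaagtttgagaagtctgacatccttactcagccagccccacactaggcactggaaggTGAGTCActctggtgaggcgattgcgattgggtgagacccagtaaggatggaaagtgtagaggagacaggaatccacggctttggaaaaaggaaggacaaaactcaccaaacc
BAX: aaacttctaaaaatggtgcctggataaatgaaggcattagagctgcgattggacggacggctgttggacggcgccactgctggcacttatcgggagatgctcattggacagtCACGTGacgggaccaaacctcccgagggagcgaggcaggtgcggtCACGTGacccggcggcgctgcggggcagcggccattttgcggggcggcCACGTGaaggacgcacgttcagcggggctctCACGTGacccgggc
The windows searched ran from 250 bases before to 50 bases after the start, and 8 of the 10 members had one or more in the table used; BIK and MCL1 were not looked up elsewhere. PMAIP1 held a CRE core from position -56 to -51 relative to the start, a motif present in 7.98% of all 35116 windows, and was the only member with one. The full CRE TGACGTCA, held by 1.85% of all windows, was found in none of the members. BBC3 held an E-box from -232 to -227 and an AP-1 site from -113 to -107, motifs present in 7.26% and 7.71% of all windows. BAX held 4 E-boxes. BID held a single E-box, which 2 overlapping windows of its 5 start windows share. The GC box GGGCGG was present in 45.0% of all windows and in those of PMAIP1, BAX, BAK1, BCL2L11, BCL2L1 and BID. None of the members held the CHOP-ATF4 composite TGATGNAA (3.62% of all windows). A p53 half-site, present in 6.63% of all windows, was found in BAK1 alone, from -73 to -64, and not in PMAIP1, BBC3 or BAX. A match is a run of letters, not a bound site, and its absence from these windows says nothing of sites elsewhere in the gene.

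With vehicle, the family was dominated by few transcripts; a level here is RNA per library, in which fewer transcribing cells and less RNA per cell cannot be told apart. Per length of the canonical transcript, the median levels over the 6 vehicle libraries, in CPM per kilobase (RPKM), were 117 for BAX, 108 for BCL2L1 and 72.7 for MCL1. BID (21.6), BAK1 (16.7) and PMAIP1 (13.1) formed a middle group, followed by BBC3 (9.12), BIK (4.43), BCL2L11 (3.13) and BCL2 (0.914). Neighbours in this order often overlapped: MCL1 was above BID in 6 of 6 lines and BAX above BCL2L1 in 5, but BID was above BAK1 in only 2 and BAK1 above PMAIP1 in 3. Dividing by the length of all annotated exons instead put BCL2L1 (66.0) and MCL1 (46.2) ahead of BAX (36.0), since BAX has a short canonical transcript of 795 bases among 2587 exonic bases. BCL2, the founding member, was the least abundant by both lengths.

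**Figure D1:**
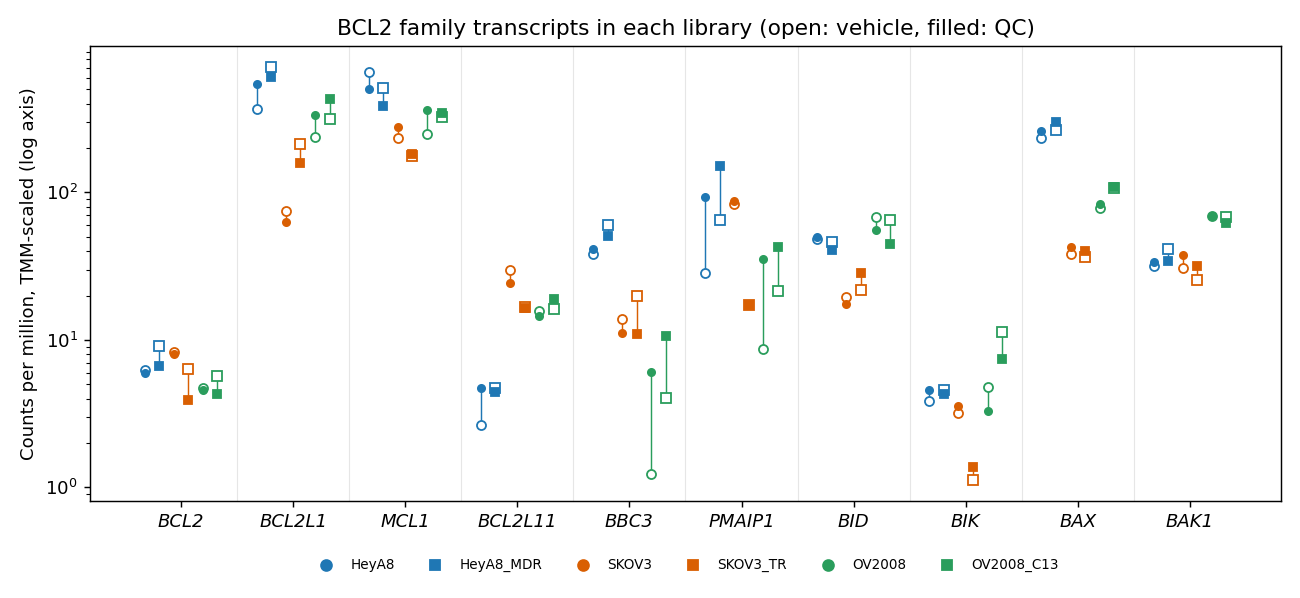
TMM-scaled CPM (log axis) of the 10 BCL2 family transcripts in each of the 12 libraries; open symbols are vehicle, filled symbols QC, circles sensitive and squares resistant lines, and a line joins the 2 libraries of a cell line. PMAIP1 and BBC3 span the longest vehicle-to-QC distances, and BBC3 in OV2008 with vehicle, at 1.23, is among the lowest values plotted.

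The members differed widely between lines with vehicle. The level of BBC3 in the highest line was 48.5 times that in the lowest, from 1.23 CPM in OV2008 to 59.8 CPM in HeyA8_MDR. The same ratio was 11.2 for BCL2L11, 10.1 for BIK, 9.55 for PMAIP1, 9.47 for BCL2L1 and 7.22 for BAX. MCL1 (3.74), BID (3.49), BAK1 (2.69) and BCL2 (1.93) were more even. BCL2L11 was lowest in HeyA8 (2.66 CPM) and HeyA8_MDR (4.73 CPM) and highest in SKOV3 (29.8 CPM), whereas BAX was highest in those HeyA8 lines (234 and 264 CPM) and lowest in SKOV3 (38.0 CPM) and SKOV3_TR (36.6 CPM). As a share of the summed per-length level of the 10 members, BH3-only transcripts made up 31.4% in SKOV3 and between 9.13% and 15.6% in the other 5 vehicle libraries; by exon length the SKOV3 share was 39.1%. In SKOV3 PMAIP1 alone held 19.8% of the members' sum.

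PMAIP1, the MCL1-binding BH3-only gene (chr18:59899996-59904305, GRCh38, plus strand), showed the largest response to QC over the 6 lines. In HeyA8 it had 28.3 CPM with vehicle and 93.1 CPM with QC. In HeyA8_MDR the levels were 64.8 and 151 CPM. OV2008 had 8.74 CPM with vehicle and 35.3 CPM with QC. OV2008_C13 went from 21.5 to 42.4 CPM, whereas SKOV3 (83.5 and 87.7 CPM) and SKOV3_TR (17.3 CPM in both) hardly differed between treatments. The folds were 3.29, 2.33, 4.04 and 1.98 in the first 4 of these lines, each with a 95% counting interval above 1, and 1.05 (0.987 to 1.12) and 0.997 (0.868 to 1.14) in SKOV3 and SKOV3_TR. These intervals come from the 2 counts of a line and cover counting error only. PMAIP1 was thus higher in 5 of 6 lines, with an exact two-sided sign-flip p of 0.0625 over lines, where 0.03125 is the smallest that 6 lines allow.

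In edgeR's quasi-likelihood fit with a term for each line, PMAIP1 had a log2 fold change of 1.26 (SE 0.352) in the sensitive lines, with an unadjusted p of 0.00391 and a Benjamini-Hochberg adjusted p of 0.621. In the resistant lines the log2 fold change was 0.75 (SE 0.341, unadjusted p = 0.0496, adjusted p = 0.818). Over all 6 lines it was 0.996 (SE 0.246, unadjusted p = 0.00153, adjusted p = 0.153), which ranked PMAIP1 186th of 18720 genes. It was the only one of the 10 members with an unadjusted p under 0.05, the threshold the study names, in each of these fits; 6.59% of all genes passed it in the sensitive lines, 6.03% in the resistant lines and 15.2% over all 6 lines. No gene passed an adjusted p of 0.05 in any of these fits (0%), the smallest adjusted p being 0.0622, 0.816 and 0.123. DESeq2 called 31 genes in the sensitive lines and 518 over all 6 lines at that threshold, PMAIP1 among the latter. Without HeyA8 the PMAIP1 estimate was 1.002 in the sensitive lines (unadjusted p = 0.0294) and 0.84 over all lines (unadjusted p = 0.00542). The call in the resistant lines was lost without HeyA8_MDR (0.48, unadjusted p = 0.287) and without OV2008_C13 (0.61, unadjusted p = 0.19).

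BBC3, the gene of PUMA, which binds every survival protein of the family (chr19:47220822-47232766, GRCh38, minus strand), differed with QC in opposite directions between families. OV2008 had 22 counts with vehicle and 137 with QC, or 1.23 and 6.04 CPM. OV2008_C13 had 4.06 CPM with vehicle and 10.6 CPM with QC. In SKOV3 the level was 13.8 CPM with vehicle and 11.1 CPM with QC, and SKOV3_TR went from 19.9 to 11.03 CPM. HeyA8 had 38.0 CPM with vehicle and 41.3 CPM with QC, and HeyA8_MDR 59.8 and 50.4 CPM. The folds were 4.90 (3.11 to 8.08) and 2.60 (2.09 to 3.24) in OV2008 and OV2008_C13, against 0.805 (0.679 to 0.953) in SKOV3 and 0.554 (0.472 to 0.648) in SKOV3_TR. The 2 HeyA8 lines differed from each other, with 1.09 (0.994 to 1.19) in HeyA8 and 0.842 (0.770 to 0.921) in HeyA8_MDR, which is about the fold of SKOV3. BBC3 was higher in 3 of 6 lines, so a single QC effect over all lines was small against its error (log2 0.27, SE 0.320, unadjusted p = 0.407); without OV2008 it was -0.0050. After QC, the OV2008 family reached 6.04 and 10.6 CPM, which is still below the vehicle level of the 4 other lines.

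**Figure D2:**
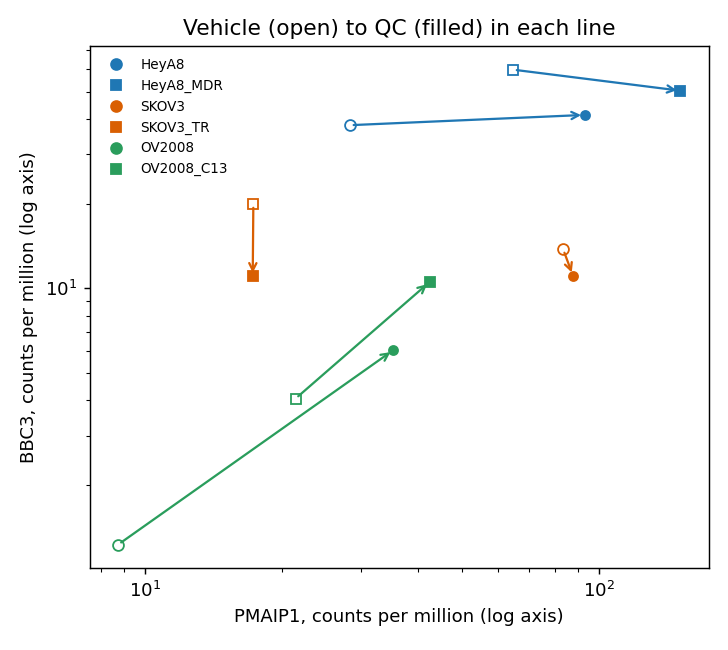
Each arrow runs from the vehicle (open) to the QC library (filled) of a line, with PMAIP1 on the horizontal and BBC3 on the vertical axis, both in CPM on log axes. The HeyA8 lines move along the PMAIP1 axis, the SKOV3 lines downwards in BBC3, and the OV2008 lines up in both.

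The QC effect was also compared between the 3 families, a comparison added after the values per line had been seen. The PMAIP1 folds of the 2 lines lay apart in the HeyA8 and OV2008 families. They were 3.29 (3.01 to 3.59) in HeyA8 against 2.33 (2.18 to 2.5) in HeyA8_MDR. In OV2008 the fold was 4.04 (3.40 to 4.82), against 1.98 (1.79 to 2.18) in OV2008_C13. In SKOV3 and SKOV3_TR the folds were 1.05 and 0.997. With 1 library for each line and treatment, the intervals cover counting error only, so differences between lines of a family were not tested. At an unadjusted p under 0.05, 14% of all 18720 genes differed between families in edgeR's F test, and so did 4 of the 10 members: BBC3, PMAIP1, MCL1 and BCL2L1. BBC3 ranked 38th of all genes (unadjusted p = 0.000309, adjusted p = 0.124). Its log2 fold changes were -0.06 (SE 0.239) in the HeyA8 family, -0.58 (SE 0.249) in the SKOV3 family and 1.74 (SE 0.282) in the OV2008 family. PMAIP1 ranked 247th (unadjusted p = 0.00225, adjusted p = 0.17), with 1.47 (SE 0.239) in the HeyA8 family, 0.04 (SE 0.237) in the SKOV3 family and 1.47 (SE 0.247) in the OV2008 family. No gene passed an adjusted p of 0.05 in this test (0%, smallest 0.0793), while 2614 passed the unadjusted threshold and DESeq2 called 826 genes, with adjusted p = 6.74e-05 for BBC3 and 0.00592 for PMAIP1. A fit that leaves out 1 line keeps only 1 line in that family, so p-values of the members from such fits are not given.

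Among the survival genes, MCL1 and BCL2L1 also differed by family, by less than 2-fold. MCL1, whose protein is known to be short-lived, had 657 CPM with vehicle and 506 CPM with QC in HeyA8, and 513 and 388 CPM in HeyA8_MDR. In the other 4 lines MCL1 was higher with QC, from 1.04-fold (0.998 to 1.09) in SKOV3_TR to 1.44-fold (1.39 to 1.49) in OV2008. The log2 fold changes by family were -0.39 (SE 0.171), 0.15 (SE 0.171) and 0.31 (SE 0.171) for HeyA8, SKOV3 and OV2008, and the unadjusted p of their difference was 0.0377 (adjusted 0.337). BCL2L1 was 1.42-fold higher with QC in OV2008 and 1.35-fold in OV2008_C13, and lower in SKOV3 (0.832-fold) and SKOV3_TR (0.746-fold). In the HeyA8 family its 2 lines disagreed, with 1.46-fold in HeyA8 and 0.848-fold in HeyA8_MDR; the QC library of HeyA8 is the one that lies towards HeyA8_MDR, where BCL2L1 was 1.94 times as high with vehicle, and the part of this in the result was not tested. The difference between families had an unadjusted p of 0.0489 for BCL2L1 (adjusted 0.357). It did not pass in fits without SKOV3, SKOV3_TR, OV2008 or OV2008_C13. For MCL1 it did not pass in fits without HeyA8, HeyA8_MDR or OV2008. Each of these fits has only 1 line left in a family.

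**Figure D3:**
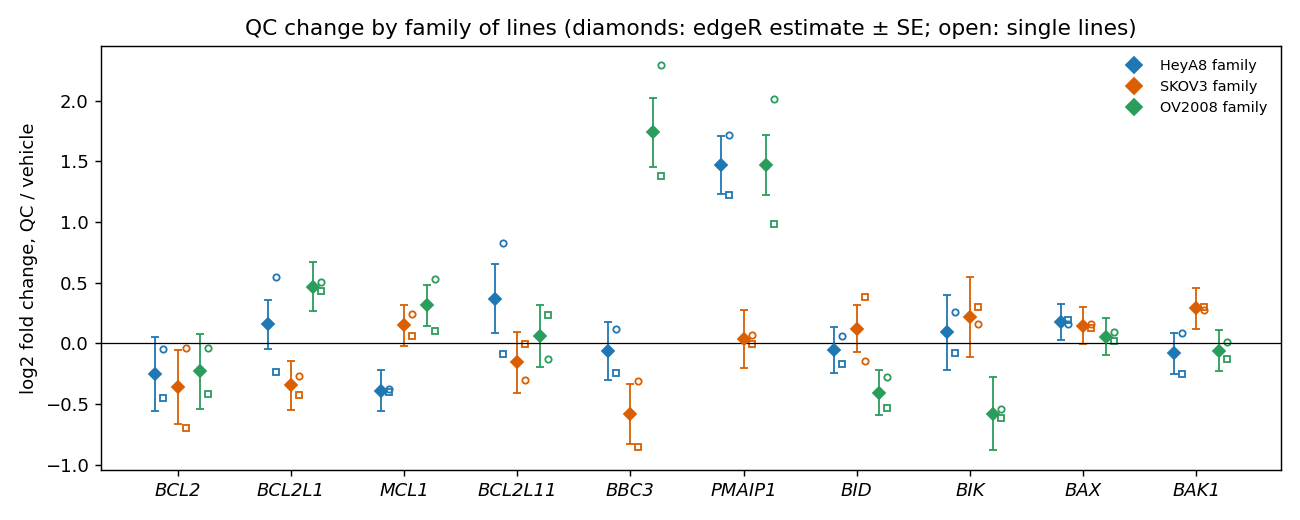
log2 fold change with QC (vertical axis) of each member in the HeyA8, SKOV3 and OV2008 families; diamonds are the edgeR estimates with bars of 1 standard error, open circles the sensitive and open squares the resistant line. PMAIP1 stands at 1.47 in the HeyA8 and OV2008 families and 0.04 in the SKOV3 family, and BBC3 at 1.74 in the OV2008 family alone.

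BCL2 and BAX were the 2 members whose fold lay on the same side of 1 in all 6 lines, a pattern shown by 8.73% of all genes tested. BCL2 was lower with QC in every line when libraries were scaled by TMM, though 1 line turned when only library size was used. It was at 0.615-fold (0.466 to 0.804) in SKOV3_TR, 0.730-fold in HeyA8_MDR and 0.750-fold in OV2008_C13. In the 3 sensitive lines it was between 0.966-fold and 0.975-fold, with counting intervals that include 1. BCL2 had between 74 and 216 counts per library, so these intervals are wide. In the fit its log2 fold change was -0.52 (SE 0.270, unadjusted p = 0.0782) in the resistant and -0.04 (SE 0.269, unadjusted p = 0.875) in the sensitive lines, and the difference between them was not significant (-0.48, SE 0.381, unadjusted p = 0.234). BAX, an effector that forms the pore itself, was between 1.01-fold and 1.14-fold higher, the narrowest spread of the 10 members (SD of the log2 ratios 0.0619, n = 6). Its counting intervals included 1 in SKOV3_TR (0.996 to 1.20), OV2008 (0.994 to 1.14) and OV2008_C13 (0.963 to 1.06). The exact two-sided sign-flip p was 0.03125 for BCL2 and for BAX, the smallest possible with 6 lines, and 10 such tests were made. The fitted log2 fold change of BAX over all lines was 0.12 (SE 0.101, unadjusted p = 0.239), so neither gene passed the fit.

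The other effector and BH3-only genes gave small and mixed differences. BAK1 ranged from 0.837-fold in HeyA8_MDR to 1.23-fold in SKOV3_TR and was higher in 4 of 6 lines, or in 3 with DESeq2 size factors and 5 with library size alone. BCL2L11 was 1.77-fold higher (1.30 to 2.45) in HeyA8, from 60 counts with vehicle to 129 with QC, and between 0.811-fold and 1.18-fold in the other lines. Its level in HeyA8 went from 2.66 to 4.72 CPM, beside 4.73 CPM in HeyA8_MDR with vehicle, towards which the HeyA8 QC library is shifted; the part of that shift was not tested. BID, which caspases cut into its active form, was lower with QC in OV2008_C13 (0.690-fold, 0.642 to 0.742) and OV2008 (0.823-fold, 0.760 to 0.891) and higher in SKOV3_TR (1.30-fold, 1.17 to 1.46). BIK, an endoplasmic reticulum BH3-only protein, was lower in both OV2008 lines, at 0.687-fold (0.497 to 0.947) and 0.654-fold (0.546 to 0.782), while in the other 4 lines its intervals included 1. Neither BID (unadjusted p = 0.177) nor BIK (unadjusted p = 0.202) passed the test between families.

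**Figure D4:**
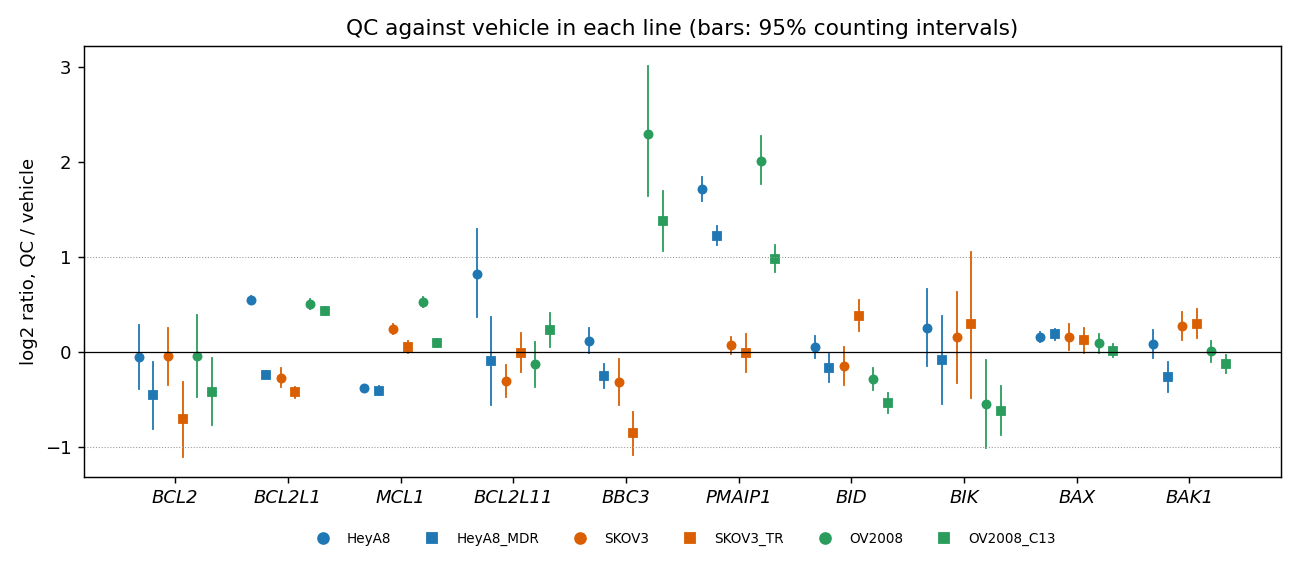
log2 ratio of QC to vehicle (vertical axis) for each member in each of the 6 lines; points are single line ratios, bars their 95% counting intervals, and dotted lines mark 2-fold. The points beyond the dotted lines are those of PMAIP1 in HeyA8, HeyA8_MDR and OV2008 and of BBC3 in OV2008 and OV2008_C13.

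Read line by line, few members differed by 2-fold or more, and each of those was higher with QC. In HeyA8 it was 1 of 10 (PMAIP1), where 17.1% of all genes differed by 2-fold or more in either direction, and in HeyA8_MDR 1 of 10 (PMAIP1) against 16.6%. In OV2008 it was 2 of 10 (PMAIP1 and BBC3) against 18%, and in OV2008_C13 1 of 10 (BBC3) against 11.4%. None of the 10 did so in SKOV3 or SKOV3_TR, where 8.26% and 9.37% of genes did. The shares for the members were thus near those of all genes or below them. The median log2 ratio of the 10 members lay between -0.20 in HeyA8_MDR and 0.14 in HeyA8.

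The balance between PMAIP1 and its partner MCL1 was also read per length of the canonical transcript. In HeyA8 there were 0.0897 PMAIP1 transcripts per MCL1 transcript with vehicle and 0.382 with QC, and in HeyA8_MDR 0.262 and 0.811. OV2008 had a ratio of 0.0727 with vehicle and 0.204 with QC, and OV2008_C13 0.138 and 0.254. In SKOV3 the ratio was already 0.738 with vehicle and was 0.657 with QC, and in SKOV3_TR it was 0.206 and 0.197. These ratios depend on the length used. By exon length PMAIP1 was slightly above MCL1 in SKOV3 with vehicle (38.2 and 37.8 RPKM). It was also above MCL1 in HeyA8_MDR with QC (69.2 and 62.3 RPKM). The share of BH3-only transcripts in the members' per-length sum was 9.13% with vehicle and 12.8% with QC in HeyA8 and 10.9% and 15.25% in HeyA8_MDR. In the other lines it differed less: 31.4% and 29.2% in SKOV3, 15.6% and 15.9% in SKOV3_TR, 13.45% and 13% in OV2008, and 13.6% and 12.5% in OV2008_C13. By exon length the OV2008 share was instead higher with QC (14.6% and 15.2%). BCL2L1 held 31.6% of the sum in OV2008 with QC, more than any other member; by exon length it already led there with vehicle.

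The test of a different QC response in resistant and sensitive lines does not pair a resistant line with its parent, and no member passed it. It was passed at an unadjusted p under 0.05 by 0 of the 10 members and by 217 genes (1.16% of all genes); no gene passed when adjusted (0%, smallest adjusted p 1), and DESeq2 called 1 gene. PMAIP1 had a difference of -0.52 (95% interval -1.58 to 0.55, unadjusted p = 0.311), which does not exclude a resistant response weaker by more than 2-fold. Without SKOV3, whose PMAIP1 hardly differed, the difference was -1.10 (unadjusted p = 0.0151), and with a QC term for each family it was -0.53 (unadjusted p = 0.0493). BBC3 had -0.47 (interval -1.90 to 0.97). The median of the 10 members was -0.18, beside -0.02 for all genes.

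With vehicle, the resistant lines carried more BCL2L1 transcript than their parents. The levels were 368 CPM in HeyA8 and 713 CPM in HeyA8_MDR, 75.3 CPM in SKOV3 and 212 CPM in SKOV3_TR, and 237 CPM in OV2008 and 317 CPM in OV2008_C13. These are ratios of 1.94, 2.81 and 1.34, in the same direction in 3 of 3 families. BCL2L1 was 1 of 10 members with an unadjusted p under 0.05 (log2 0.96, SE 0.321, unadjusted p = 0.0255, adjusted p = 0.975), where 3.77% of the 16091 genes tested in the 6 vehicle libraries passed and none did when adjusted (0%; DESeq2 called 41 genes). The call was not kept without the HeyA8 family (unadjusted p = 0.0798) or without the SKOV3 family (0.0943). BBC3 was also higher in each resistant line, by 1.57-fold, 1.45-fold and 3.30-fold for the HeyA8, SKOV3 and OV2008 families (unadjusted p = 0.0548). PMAIP1 was 2.29-fold higher in HeyA8_MDR and 2.46-fold higher in OV2008_C13 than in the parent but stood at 0.208-fold in SKOV3_TR. BIK showed a similar split, at 1.19-fold and 2.36-fold against 0.353-fold in SKOV3_TR. By 2-fold or more, 1 member was higher in the HeyA8 family, where 29.5% of all genes differed that much, 1 was higher and 2 were lower in the SKOV3 family (33.1%), and 3 were higher in the OV2008 family (21.3%). MCL1 was lower in HeyA8_MDR (0.782-fold) and SKOV3_TR (0.745-fold) and higher in OV2008_C13 (1.30-fold).

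Genes around the family were read from 4 lists. Of 10 tested other BCL2 family genes, 3 were higher and 1 lower over all 6 lines at an unadjusted p under 0.05, beside the 15.2% of all genes given above, against which the counts of each list in this comparison are to be read. The 2 with the smallest p were BNIP3L (log2 0.48, SE 0.138, unadjusted p = 0.00474) and BNIP3 (0.57, SE 0.178, unadjusted p = 0.00704), mitochondrial receptors for mitophagy, and each was below vehicle in SKOV3 alone (0.972-fold and 0.867-fold). The third was BMF, a BH3-only gene, whose response also differed by family (log2 0.91 in HeyA8, -0.18 in SKOV3, 1.63 in OV2008, unadjusted p = 0.000712). BMF had only 10 counts with vehicle and 28 with QC in OV2008 and 13 and 46 in OV2008_C13, so the value of that family rests on few reads. The gene that was lower was BOK, an effector-like relative of BAX (-0.49, SE 0.213, unadjusted p = 0.0411). Of 13 caspase, apoptosome and inhibitor genes only the inhibitor BIRC2 passed (0.44, SE 0.162, unadjusted p = 0.0188), and CASP2, the next by p, did not (-0.34, SE 0.159, unadjusted p = 0.0518). Of 12 transcriptional regulators, 3 were higher (ATF3, DDIT3, MDM2) and 1 was lower (ATF4, -0.39, SE 0.156, unadjusted p = 0.0288).

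ATF3, a stress-induced factor of the ATF family, had the smallest p of that list (log2 1.47, SE 0.360, unadjusted p = 0.00142, adjusted p = 0.153). It was 7.51-fold higher with QC in HeyA8, 2.84-fold in HeyA8_MDR, 2.86-fold in SKOV3, 5.36-fold in OV2008 and 2.16-fold in OV2008_C13, and 0.618-fold in SKOV3_TR. Its difference between resistant and sensitive lines passed the unadjusted threshold (-1.63, SE 0.539, unadjusted p = 0.011, adjusted p = 1), and with vehicle it was higher in the resistant lines (2.26, SE 0.376, unadjusted p = 0.00116, adjusted p = 0.975). These 2 values share the 6 vehicle libraries, so their opposite signs are not independent; without HeyA8 the former was -1.30 (unadjusted p = 0.035). DDIT3, the gene of the stress factor CHOP, was higher with QC in the same 5 lines, from 1.36-fold in HeyA8_MDR to 2.12-fold in OV2008, and at 0.672-fold in SKOV3_TR. Among 13 mitochondrial partners and MCL1 turnover genes 3 were higher and 0 lower, led by FBXW7, the receptor of a ubiquitin ligase for MCL1 (0.70, SE 0.203, unadjusted p = 0.00488), with OPA1, which shapes the inner membrane, next (0.35, SE 0.137, unadjusted p = 0.0268), and VDAC2 the third. Between families, 4 of 10, 3 of 13, 2 of 12 and 6 of 13 genes of these lists in the same order passed the unadjusted threshold, beside the 14% of all genes given above. The medians of the lists over all 6 lines lay between 0.07 and 0.13 on the log2 scale, beside 0.000101 for all genes.

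Several of these genes had their largest fold in HeyA8, in the direction in which HeyA8_MDR with vehicle differs from HeyA8 with vehicle. ATF3 went from 8.46 to 63.6 CPM in HeyA8, past the 37.2 CPM of HeyA8_MDR with vehicle. FBXW7 went from 27.7 to 94.6 CPM, also past the level there (73.9 CPM). BNIP3 went from 140.6 to 324 CPM and stayed below it (397.5 CPM). Without HeyA8 the log2 fold changes over the remaining lines were 1.18 for ATF3 (unadjusted p = 0.00373), 0.48 for FBXW7 (0.0127), 0.44 for BNIP3 (0.0265), 0.44 for BNIP3L (0.0142), 0.60 for DDIT3 (0.0167) and 0.69 for MDM2 (0.0285), and these 6 genes also passed the unadjusted threshold without any other single line. BIRC2 (0.55, unadjusted p = 0.00516), OPA1 (0.41, 0.0182) and BOK (-0.55, 0.0351) passed without HeyA8 too, but BMF (0.42, 0.136), ATF4 (-0.28, 0.101) and VDAC2 (0.22, 0.137) did not. Other single lines also ended calls. BIRC2 did not pass without OV2008 (0.073) or OV2008_C13 (0.0665), OPA1 without HeyA8_MDR (0.119) or SKOV3_TR (0.0893), and BOK without HeyA8_MDR (0.0504), OV2008 (0.143) or OV2008_C13 (0.0859). BMF did not pass without HeyA8_MDR (0.103), OV2008 (0.0636) or OV2008_C13 (0.116), ATF4 without SKOV3_TR (0.0785), OV2008 (0.0718) or OV2008_C13 (0.0503), and VDAC2 without HeyA8_MDR (0.119), SKOV3_TR (0.0848) or OV2008 (0.0525).

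The gene whose log2 CPM was most alike a member over the 12 libraries, among 9587 genes with a symbol and a mean log2 CPM of at least 3, is given as a description; libraries of a line share their cells, so these 12 points are not independent. For PMAIP1 it was CHMP1B (Pearson r = 0.938) and for BBC3 ATOSB (0.984). For the survival genes it was HEMK1 for BCL2 (0.897), PHLDB3 for BCL2L1 (0.978) and KLHL21 for MCL1 (0.966). For the other BH3-only genes it was ASS1 for BCL2L11 (0.979), DKK1 for BID (0.981) and SELENOH for BIK (0.954), and for the effector gene BAX it was AOX1 (0.993).

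Some members share bases with another gene, and the strand setting of the counting is not given in the sources used here, so reads of such pairs cannot be told apart. BCL2L11 overlaps the opposite-strand MIR4435-2HG, which had 152 to 1949 counts per library against 60 to 712 for BCL2L11 itself. BCL2L1 overlaps the opposite-strand ABALON (6 to 262 counts against 1379 to 14763). MCL1 (3444 to 14821 counts) overlaps the opposite-strand ADAMTSL4 (28 to 502) and, on the same strand, ADAMTSL4-AS1 (4 to 120). BAK1 has a processed pseudogene that may take some of its reads.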

How the data were processed

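RNA from 12 cultures was sequenced by the authors (TruSeq RNA kit), and the deposited table holds raw counts per gene without normalization. The paper names TopHat, hg19 and HTSeq, whereas the submitters' processing notes name STAR 2.7.3a, HTSeq 0.6.1p1 and GRCh38.p13; annotation release and strand setting are not given in the sources used here. Gene positions are the GRCh38 locations recorded in GENCODE, and promoter sequences are from RefSeq. Of 60669 IDs, 58620 were paired with a symbol (99.868% of counts).

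Tests on these counts used edgeR 4.0.16 under R 4.3.3 (filterByExpr, minimum count 10 and total 15; TMM; quasi-likelihood tests with a term for each line; Benjamini-Hochberg adjustment over all genes, two-sided). DESeq2 1.42.0 was an alternative. Vehicle libraries were compared with a term for each family. Libraries with vehicle and with QC are paired through the cell line they share. Line ratios use TMM-scaled CPM, with exact binomial 95% intervals from the 2 counts; log2 ratios use a prior count of 2. RPKM was computed from transcript lengths. The fits were tested on simulated data.

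Named genes are the 10 members, for each the gene most alike over libraries, and the 2 genes of each pathway list with the smallest p over all lines. BMF, BOK, VDAC2, MDM2, ATF4, TP63, BCL2A1, PAX8, CDH5, KRT7, KRT8, KRT18, KRT19, EPCAM and CDH1 were added after their values were seen. The gene most alike BAK1 is not reported here. Members and lists were chosen with earlier results of these data known. Alternatives were no line term, DESeq2, other scalings, no filter, a minimum of 10 counts in each library, leaving out each line and a term for each family. Plots were drawn with matplotlib 3.10.9.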

Additional observations from a re-analysis of the deposited data

Results flagged for a closer look

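The QC response of 4 members differed between the HeyA8, SKOV3 and OV2008 families by edgeR's F test at an unadjusted p under 0.05, a test added after the values per line had been seen. The p-value was 0.000309 for BBC3, which was 4.90-fold and 2.60-fold higher with QC in OV2008 and OV2008_C13 and lower in the 2 SKOV3 lines. It was 0.00225 for PMAIP1, which was near its vehicle level in the 2 SKOV3 lines. For MCL1 it was 0.0377, with lower levels in the 2 HeyA8 lines, and for BCL2L1 it was 0.0489, with higher levels in the 2 OV2008 lines and lower ones in the 2 SKOV3 lines. With DESeq2 the adjusted p was 6.74e-05 for BBC3 and 0.00592 for PMAIP1, and 0.0908 for MCL1 and 0.155 for BCL2L1.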

How the results depend on the processing

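PMAIP1 kept a positive QC effect in the sensitive lines, the resistant lines and over all lines under each alternative run. Fits without the pairing of the libraries of a line (no line term) gave no member with an unadjusted p under 0.05, and 30, 23, 6, 108 and 104 genes for the sensitive lines, the resistant lines, their difference, all lines and the vehicle comparison, in place of 1234, 1128, 217, 2840 and 606. Signs that turned without that block were -0.15 for BCL2L11 in sensitive lines; -0.22 for BBC3 in resistant lines; 0.25, 0.18 and -0.085 for BCL2L11, PMAIP1 and BID in the difference; -0.063, -0.041 and -0.069 for MCL1, BCL2L11 and BBC3 over all lines; and -0.36, -0.21 and -0.031 for BCL2L11, PMAIP1 and BID with vehicle.

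Genes with an unadjusted p under 0.05 numbered 1918, 501 and 1583 without a filter in the sensitive lines, the difference and the vehicle comparison; 120 in the difference with a minimum of 10 counts in each library and 438 with a QC term for each family; and, with vehicle, 1058 with DESeq2 and 3460 with all 12 libraries. With an adjusted p under 0.05 there were, in place of 0, 31, 1, 518, 41 and 826 genes with DESeq2 for the sensitive lines, the difference, all lines, vehicle and the families; 195, 35, 5, 791, 146 and 961 without a filter for the sensitive lines, the resistant lines, the difference, all lines, vehicle and the families; 32 for vehicle with all 12 libraries; and for the families 4 by library size and 5 with that minimum of 10 counts. Other turned signs were those of values near 0: BID in the difference by library size (-0.032) and without a filter (-0.019); with vehicle, BCL2L11 by DESeq2 (-0.0095), its size factors in edgeR (-0.0052) and no filter (-0.0012), and, with all 12 libraries, BCL2 (-0.085), BCL2L11 (-0.060), PMAIP1 (-0.16), BIK (-0.022) and BAK1 (-0.045); and BAK1 in OV2008_C13 by library size (0.030). By library size BCL2 was higher with QC in 1 line, MCL1 in 3 and BAK1 in 5; by DESeq2 size factors BAK1 was higher in 3. The cause was not tested.

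Leaving out each line in turn gave 808 to 2012 genes with an unadjusted p under 0.05 in the sensitive lines, 416 to 1376 in the resistant lines, 187 to 540 for the difference and 1552 to 3642 for the families, and with an adjusted p 2 to 18 in the sensitive lines, 0 to 1 over all lines and 0 to 760 for the families. Log2 estimates that crossed 0 ranged, in sensitive lines, from -0.22 to 0.31 for BCL2L11, -0.065 to 0.38 for MCL1, -0.086 to 0.98 for BBC3 and -0.20 to 0.21 for BIK. In resistant lines they ranged from -0.19 to 0.063 for MCL1, -0.17 to 0.068 for BAK1, -0.34 to 0.11 for BCL2L1, -0.059 to 0.10 for BCL2L11, -0.56 to 0.54 for BBC3, -0.34 to 0.093 for BID and -0.34 to 0.081 for BIK. In the difference they ranged from -0.25 to 0.27 for BCL2L11, -0.38 to 0.13 for BIK, -1.06 to 0.14 for BBC3, -0.20 to 0.23 for BID and -0.072 to 0.016 for BAX. Over all lines they ranged from -0.057 to 0.15 for BCL2L11, -0.073 to 0.10 for MCL1, -0.0042 to 0.094 for BAK1 and -0.0050 to 0.51 for BBC3. With vehicle, leaving out a family gave -0.048 to 0.43 for BCL2, -0.40 to 0.44 for BCL2L11, -0.50 to 1.26 for PMAIP1, -0.58 to 0.76 for BIK, -0.15 to 0.19 for BAK1, -0.35 to 0.027 for MCL1 and -0.049 to 0.082 for BID.

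With 3 lines in a group and no replicate of a line, a change in 1 line cannot be told from the variation of that culture. BIK, BCL2L11, BCL2, BMF in the OV2008 family and, in OV2008 with vehicle, BBC3 rest on few counts, so only large differences were detectable for them.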

Other observations

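MDM2, a ubiquitin ligase, had a log2 fold change with QC of 0.55 (SE 0.240) in the HeyA8 family, -0.0040 (SE 0.240) in the SKOV3 family and 1.70 (SE 0.249) in the OV2008 family, and the unadjusted p of the difference between families was 0.0018 (edgeR, adjusted p = 0.166). In HeyA8 it had 485.5 CPM with vehicle and 932.1 CPM with QC, against 505.2 and 561.1 CPM in HeyA8_MDR. TP63, a transcription factor gene, had 315.3 CPM in OV2008 and 108.0 CPM in OV2008_C13 with vehicle and at most 0.1773 CPM in the other 4 vehicle libraries. BCL2A1, a further survival gene, had 35.01 CPM in HeyA8 and 10.91 CPM in HeyA8_MDR with vehicle and 0 to 2 counts in the other 4 vehicle libraries. These genes were chosen after their values were seen, and their part in the responses of PMAIP1 and BBC3 was not tested.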
